A study of Homo sapiens with 2 samples.

Results

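The genes described here encode the proteins of the cytosolic ribosome, the particle that makes nearly all of a cell's proteins. They were taken by name: every row of the deposited table called RPL or RPS with digits and at most 1 trailing letter A, X or L, together with RPLP0, RPLP1, RPLP2 and RPSA, and without pseudogenes or kinases. This gave 80 members of 19826 rows, 49 of the large and 31 of the small ribosomal subunit. The name does not separate the general ribosomal proteins from 4 paralogs that the rule also takes in, RPL3L, RPL10L, RPL39L and RPS27L.

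A ribosome holds 1 copy of most of these proteins, so their mRNAs are needed in like amounts. The mRNAs belong to the TOP class, named for a terminal oligopyrimidine tract: transcription starts at a C that is followed by a run of C and T, written as U in the RNA. LARP1 and the kinase complex mTORC1, which responds to nutrients and energy, act on the translation of TOP mRNAs through this tract. Metformin, a biguanide given in type 2 diabetes, lowers respiratory chain activity and is known to reduce mTORC1 signalling. A table of UMIs counts mRNA molecules and does not measure how well they are translated.

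The cells were MDA-MB-231, an established human breast cancer line that lacks the oestrogen and progesterone receptors. Both groups spent 30 days in flat culture in high-glucose DMEM, the control (labelled Wildtype) with 0 mM and the other (labelled Metformin) with 2 mM metformin, and were then grown for 10 days as mammospheres on low-attachment plates. The spheres were disaggregated with trypsin and EDTA, and single-cell libraries were made by PCR on beads and Nextera XT. There was 1 library per dose, so no test across replicates exists, no difference between the doses can be told apart from a difference between the libraries, and every interval given here covers counting error only.

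After barcodes with fewer than 500 UMIs (unique molecular identifiers, tags that each mark 1 captured molecule) or 300 genes were left out, 1000 barcodes at 0 mM and 991 at 2 mM remained, with 4403045 and 3264343 UMIs and medians of 3386 and 2509 per cell. The libraries had no barcode in common. Within each, some barcodes differed by 1 base only, and joining those would leave 931 and 883 cells, so a cell may be counted more than once. The line's mesenchymal marker list summed to 5153 and 4819 UMIs per 1000000 (CPM), while 3 leukocyte markers with a row in the table had 27 and 55 UMIs in all, 5 fibroblast markers 11 and 15, and 1 endothelial marker 4 and 12. Levels are CPM summed over a library's cells. A UMI marks 1 molecule, so levels were not divided by length.

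The start-site windows below show the tract that makes these mRNAs a class, for the 4 members that differed most between the doses, for 2 members at the low end of the ratios, for the member with the highest level and for a paralog without the tract. Each runs from 10 bases before to 20 bases from the RefSeq start on (GRCh38.p14), 5′ to 3′ on the gene's strand. Capitals mark the longest run of C and T that begins with C and has at least 5 bases.
RPL3: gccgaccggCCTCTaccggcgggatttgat
RPL10: ggaggagcgCCTCTTTCCCTTCggtgtggt
RPS27: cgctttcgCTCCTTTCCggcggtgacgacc
RPS3A: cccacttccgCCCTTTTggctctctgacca
RPL28: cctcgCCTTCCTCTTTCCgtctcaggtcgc
RPL26: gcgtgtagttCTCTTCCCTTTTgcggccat
RPLP1: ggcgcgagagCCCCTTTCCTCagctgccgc
RPS27L: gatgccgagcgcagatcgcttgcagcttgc

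The RPL3 window is at chr22:39319604-39319633 on the minus strand, RPL10 at chrX:154398367-154398396 on the plus strand, RPS27 at chr1:153990752-153990781 on the plus strand and RPS3A at chr4:151099618-151099647 on the plus strand. RPL28 is at chr19:55385922-55385951 on the plus strand, RPL26 at chr17:8383174-8383203 on the minus strand, RPLP1 at chr15:69452808-69452837 on the plus strand and RPS27L at chr15:63157458-63157487 on the minus strand. For RPL10, which has 3 starts in the RefSeq table, the start with the longest tract is shown.

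Of the 80 members, 64 had an entry in the RefSeq promoter table, and 58 of these (90.6%) held such a tract in the window, with a median length of 11 bases. On the opposite strand 20.3% of the 64 held one. Over 27241 other genes the shares were 43.3% and 41.4%, and 38.4% of all 35116 windows in the table held a tract on the gene's strand. The 6 members without a match were RPL10L, RPL17, RPL6, RPS27L, RPS29 and RPS4X, of which RPL10L and RPS27L are paralogs. A match is a description of these letters and not a measured start. The 48 compared members with a tract of 8 or more bases had a median log2 dose ratio of 0.02, and the 11 with a shorter tract or none had 0.17.

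The members were among the most abundant mRNAs of both libraries, and their order was nearly the same at both doses. At 0 mM, RPLP1, an acidic protein of the stalk that recruits elongation factors, stood first with 4546 CPM, ahead of RPS3 at 2825, RPS14 at 2787, RPL19 at 2522 and RPS6 at 2458 CPM. At 2 mM, RPLP1 again stood first with 4540 CPM, followed by RPS19 at 3682, RPS14 at 3104, RPS6 at 2706 and RPS3 at 2616 CPM. In each library 42 of 80 members lay at or above 1000 CPM, and 11 at 0 mM and 12 at 2 mM lay below 100 CPM. The rank correlation of the 80 levels between the libraries was 0.965. These points share the genes' own lengths, sequences and counting.

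The members, most of which encode proteins that the ribosome holds in equal numbers, thus had mRNA counts that spread over a wide range. The lowest members were RPS26 with 5 UMIs in each library and RPL3L, the muscle-type paralog of RPL3, with 5 and 7 UMIs. RPL17 had 24 and 29 UMIs, RPL7 25 and 34, RPL10L, a testis-type copy of RPL10, 29 and 44, RPL21 84 and 114, and RPL36A 73 and 53. In all 8 members did not reach the minimum for a comparison, 50 CPM in either library and 50 UMIs over both. RPS26, RPL7, RPL17 and RPL21 have 30, 61, 26 and 66 named pseudogenes in GENCODE v29. Whether reads that match such copies were kept is not given in the sources used here, so the level of a member with near-identical copies is uncertain.

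**Figure D1:**
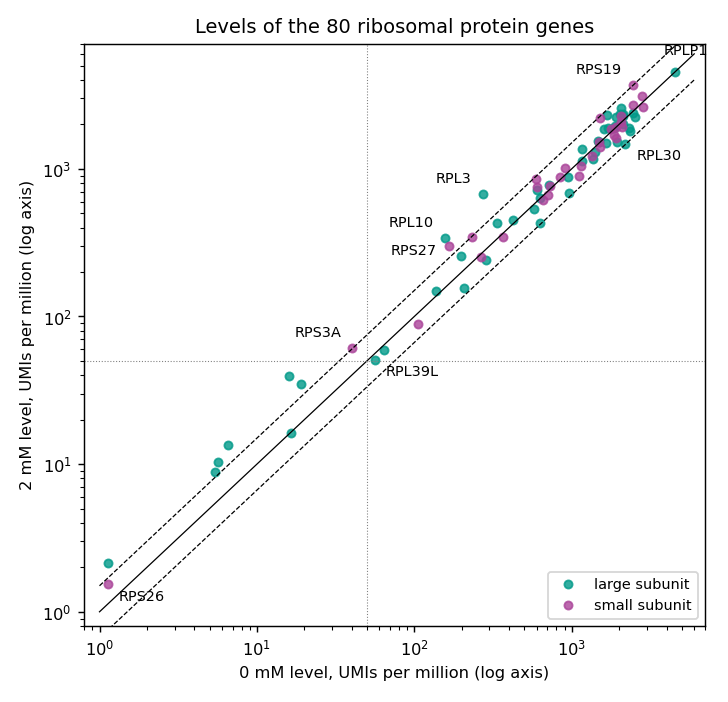
Level of each of the 80 members at 0 mM (horizontal, CPM, log axis) and 2 mM (vertical, same unit, log axis), with the line of equality, the 1.5-fold lines (dashed) and the 50 CPM minimum (dotted). Most points crowd near the line above 1000 CPM, RPL3, RPL10 and RPS27 lie above the upper dashed line, and RPS26 lies near 1 CPM.

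The comparison of the doses asks how adaptation to metformin altered the transcriptome of the spheres. As a group the members differed little. At 2 mM 4 were at least 1.5-fold higher, near the share of all genes, and none was 1.5-fold lower. Of 72 members compared, RPL3, RPL10, RPS27 and RPS3A were called higher by this size rule. Over all 4105 genes compared, 5.04% were called higher and 3.31% lower. The members' median log2 ratio was 0.02 (95% interval of the median -0.08 to 0.10), the same as the 0.02 of all genes, with 38 members above and 34 below a ratio of 1. The interval of the ratio lay wholly above 1 for 29 members and wholly below 1 for 26, so members differed from each other by more than counting error. Of all 4105 genes, 1112 lay wholly above and 959 wholly below 1. Intervals are narrower for genes with more UMIs, as most members have, so these counts are not compared further. With edgeR's TMM factors the median was -0.07 for the members and for all genes, with 3 members called higher and 2 lower, and the calls over all genes turned from 207 higher and 136 lower to 140 and 223.

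RPL3 and RPL10 both sit close to the peptidyl transferase centre, where amino acids are joined. RPL3 had 1199 UMIs at 0 mM and 2212 at 2 mM, which is 272 and 678 CPM, a ratio of 2.49 (95% interval 2.32 to 2.67). RPL10, a late-joining protein needed for the final step of large subunit maturation, had 156 and 342 CPM, a ratio of 2.20 (2.00 to 2.42). The 2 other members of this group did not follow. RPL4 had 943 and 882 CPM (0.936) and RPL8 had 1854 and 1903 CPM (1.03). The median log2 ratio of these 4 members was 0.59, with 2 of 4 called.

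RPS27 and RPS3A belong to the body and platform of the small subunit. RPS27, a zinc-binding protein, had 167 and 301 CPM, a ratio of 1.80 (1.63 to 1.98), and 1.52-fold without the deepest 5% of barcodes. RPS3A had only 178 and 199 UMIs, or 40.4 and 61.0 CPM, and its ratio of 1.51 (1.23 to 1.86) reached well below 1.5. TMM factors ended the call of RPS3A, at a log2 ratio of 0.51. All 4 called members have 10 or more named pseudogenes, as do 34 of the 72, so their counts are uncertain in the way described above. The 34 had a median log2 ratio of 0.02 and the other 38 members 0.03.

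Just inside the 1.5-fold limit lay RPS19, RPSA, RPS18, RPS2 and RPLP0, all higher at 2 mM. RPS19, the protein first found mutated in Diamond-Blackfan anaemia, went from 2456 to 3682 CPM between the libraries, a ratio of 1.499 (1.46 to 1.54). RPSA, also known as the laminin receptor, had 232 and 346 CPM (1.49, 1.37 to 1.62). RPS18 had 1501 and 2218 CPM (1.48, 1.43 to 1.53) and RPS2 had 590 and 849 CPM (1.44, 1.36 to 1.52). RPSA has 74 and RPS2 20 named pseudogenes, while RPS18 has 5 and RPS19 has 4. A processed pseudogene row of RPSA, RPSAP58, was present in the table with 319 and 381 UMIs.

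The other roles in the large subunit gave smaller and mixed differences. In the stalk, RPLP0, which anchors it, had 1669 and 2300 CPM (1.38, 1.33 to 1.42), while RPLP1 was at 0.999 (0.978 to 1.02) and RPLP2 at 0.974 (2448 and 2384 CPM). The stalk proteins together with RPL12 had a median of 0.12. RPL5 and RPL11, which join 5S rRNA before assembly and can bind MDM2 when free, had ratios of 0.965 (1161 and 1120 CPM) and 1.08 (2106 and 2285 CPM). Of 8 members at the exit of the peptide tunnel, 7 were compared, none was called and the median was 0.02. Among these RPL39 had 285 and 241 CPM (0.847, 0.774 to 0.927).

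Of the 6 members lowest by the interval bound nearest 1, 5 belong to the large subunit. RPL30 had 2188 CPM at 0 mM and 1478 at 2 mM, a ratio of 0.675 (0.652 to 0.699). RPL28 had 629 and 431 CPM (0.686, 0.643 to 0.732), and RPL26, at the tunnel exit, had 960 and 691 CPM (0.720, 0.683 to 0.757). These 3 lay close to the limit, and RPL30 and RPL28 passed it with TMM factors, at log2 ratios of -0.65 and -0.63, and without the deepest 5% of barcodes, at -0.63 and -0.67. RPL27 followed at 0.769 (2329 and 1792 CPM), RPL23 at 0.785 (1937 and 1521 CPM) and RPS24 at 0.805 (1104 and 888 CPM). The 24 compared members of no other large subunit role had 12 ratios above and 12 below 1 and a median of -0.02.

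In the small subunit head, 13 members were compared, none was called, and the median was -0.01. The 16 members of the body and platform had 10 ratios above and 6 below 1 and a median of 0.06. Outside these groups RPL13, a protein of the large subunit, had 2051 and 2570 CPM (1.25, 1.22 to 1.29). RPS6, whose protein is phosphorylated by S6 kinase downstream of mTORC1, had 2458 and 2706 CPM (1.10, 1.07 to 1.13). RPS27A, which is made as a fusion with ubiquitin, had 1150 and 1038 CPM (0.902, 0.863 to 0.942). Of the 4 paralogs, RPS27L, a p53-responsive copy of RPS27, was at 0.945 (367 and 347 CPM, 0.875 to 1.02) and RPL39L at 0.907 (56.1 and 50.9 CPM, 0.740 to 1.11). Both intervals included 1. That of RPS27L lay below that of RPS27.

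**Figure D2:**
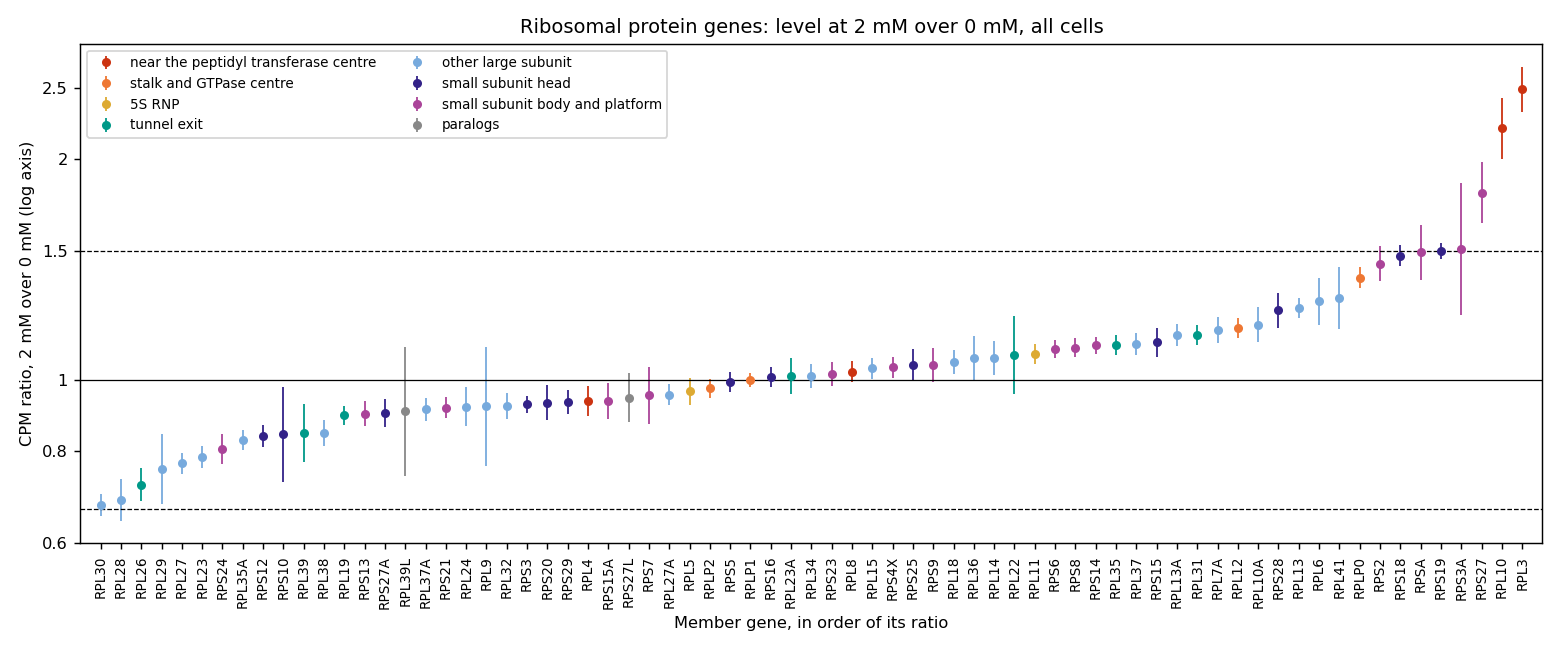
Ratio of the CPM at 2 mM to that at 0 mM (vertical, log axis) for 71 of the 72 compared members in order of the ratio, coloured by role; bars are 95% intervals for counting error, dashed lines 1.5-fold in either direction. RPL3 and RPL10 stand well above the rest at 2.49 and 2.20, and RPL30 and RPL28 close the low end at 0.675 and 0.686.

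Longer members tended to have higher ratios. The rank correlation of the dose ratio with coding length over the 72 members was 0.349, and the 37 members with coding lengths up to 453 bases had a median log2 ratio of -0.08 (15 above and 22 below 1), against 0.08 (23 above and 12 below) for the 35 longer ones. Over 3972 other genes the rank correlation with transcript length was 0.156, but their ratios did not rise steadily with length. Their median log2 ratios were 0.03 for transcripts up to 700 bases, -0.02 over 700 to 1500, -0.05 over 1500 to 3000 and 0.08 over 3000. All these points come from the same pair of libraries, and the part of length in single ratios was not tested.

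Related genes outside the naming rule gave a similar picture. Of 8 further ribosomal protein genes or close relatives, 7 had a row and were compared, and none was called. GNB2L1, the scaffold protein RACK1 of the small subunit head, was at 0.926 (2486 and 2302 CPM), RPL22L1 at 0.959, RPL36AL at 0.964, RPL26L1 at 1.196 and RPL7L1, a factor of large subunit assembly, at 1.30. FAU, which encodes a ribosomal protein fused to a ubiquitin-like protein, was at 0.991. Of 33 translation factors compared none was called, with a median of 0.04. They ran from EIF4A2 (0.768), EIF4A1 (0.784) and EIF6 (0.812) to EIF3B (1.36), EEF1A1 (1.40) and EIF5B (1.45).

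Of 5 other TOP mRNAs, VIM was called lower, at 3271 and 1596 CPM (0.488, 0.473 to 0.504), and TPT1 was at 0.809, while NPM1, HNRNPA1 and NAP1L1 lay between 0.966 and 1.07. VIM encodes the intermediate filament protein vimentin, a mesenchymal marker. Among 14 genes of the mTORC1 arm and TOP regulators, 6 could be compared and none was called. TSC1, a brake on mTORC1, was at 1.24, LARP1 at 1.13, RHEB at 1.11, DDIT4, a stress-induced inhibitor of mTORC1, at 1.09, EIF4EBP2 at 1.09 and EIF4EBP1 at 1.06. Of 68 mitochondrial ribosomal protein genes compared, MRPS21 (1.73) and MRPL41 (1.68) were called higher and MRPL49 (0.619) and MRPL10 (0.656) lower, with a median log2 ratio of -0.00.

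Over all cells the members took nearly equal shares of the libraries. They held 417270 of the UMIs at 0 mM and 317674 at 2 mM, which is 9.48% (exact binomial interval 9.45 to 9.50) and 9.73% (9.70 to 9.76). The difference of 0.255 percentage points was small and turned to -0.081 without the deepest 5% of barcodes. The large subunit gave 5.63% and 5.67%, and the small subunit 3.85% and 4.06%. With each cell thinned to 1000 UMIs, which left out 56 cells at 0 mM and 191 at 2 mM, the shares were 9.23% and 9.57%.

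Single cells spread far more than the libraries differed. At 0 mM the share per cell had a lowest value of 1.07%, a median of 9.12% and a highest of 20.9%, with quartiles of 6.66% and 11.5%. At 2 mM the lowest was 1.29%, the median 9.07% and the highest 23.3%, with quartiles of 7.14% and 11.2%. The standard deviation between cells was 3.36 and 2.94 percentage points, against 0.580 and 0.694 points that counting alone gives at these depths. The 5th percentile was 3.70% at 0 mM and 5.05% at 2 mM, and the 95th was 14.5% and 14.4%. Large and small subunit shares varied together over cells, with rank correlations of 0.907 at 0 mM and 0.847 at 2 mM. Both shares have the same cell total as denominator. The share went only weakly with a cell's UMI total (0.202 and 0.173) and with its share of mitochondrially encoded UMIs (0.157 and 0.055).

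To place the shares among cell states, cells were clustered without the members, their pseudogenes and mitochondrially encoded genes. The clusters were named where at least 3 markers of a list stood among their 50 leading genes. They were a G2/M-like cluster 0 (82 cells at 0 mM and 78 at 2 mM), an interferon-like cluster 1 (308 and 190), an S phase-like cluster 2 (116 and 109), an acute phase and chemokine-like cluster 3 (174 and 334) and a second cluster of that name, cluster 4 (6 and 118). Cluster 5 (314 and 162 cells) stayed unnamed. It was led by MTRNR2L genes, copies of mitochondrial rRNA, and its cells were shallow, with medians of 1490.5 and 954 UMIs. Cluster 4 held too few cells at 0 mM to be compared between the doses and may be particular to its library.

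Of the 5 states compared between doses, cluster 3, acute phase and chemokine-like, had the highest ribosomal protein share of summed UMIs in both libraries. The G2/M-like cells had the lowest. By the median per cell, however, interferon-like cells were lowest at 2 mM, at 7.89% against 8.05% in G2/M-like cells. The 6 cells of cluster 4 at 0 mM had 11.9% (11.4 to 12.3). In cluster 3 the share was 11.0% at 0 mM (interval 10.9 to 11.1) and 11.3% at 2 mM (11.2 to 11.4), which is 1.86 and 2.36 points above the other cells. In G2/M-like cells it was 7.97% (7.90 to 8.04) and 8.54% (8.44 to 8.64), 1.73 and 1.31 points below the other cells. The interferon-like state had 9.34% and 8.82%, or -0.20 and -1.15 points against the other cells, and S phase-like cells 9.14% and 9.13%, or -0.42 and -0.75 points. The unnamed cluster 5, at 9.56% and 9.81%, lay within 0.10 points of the other cells.

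These orders rest on how states were drawn. When states were taken from UMIs of the marker lists instead of clusters, the acute phase and chemokine difference was 1.85 points at 0 mM but only 0.37 at 2 mM, where cluster 4 had 8.68%. Of the list, cluster 4 shared CXCL1 and IL8 with cluster 3 and also had LCN2 among its leading genes. It was otherwise led by genes outside the list, among them ALOX5AP and HLA-DQB1. The S phase-like difference at 0 mM became 0.02 points with finer clusters. Mitochondrially encoded UMIs were 6.67% and 5.77% in cluster 3, 5.11% and 4.82% in G2/M-like cells and 4.48% and 4.38% in interferon-like cells. Their part in the differences was not tested.

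**Figure D3:**
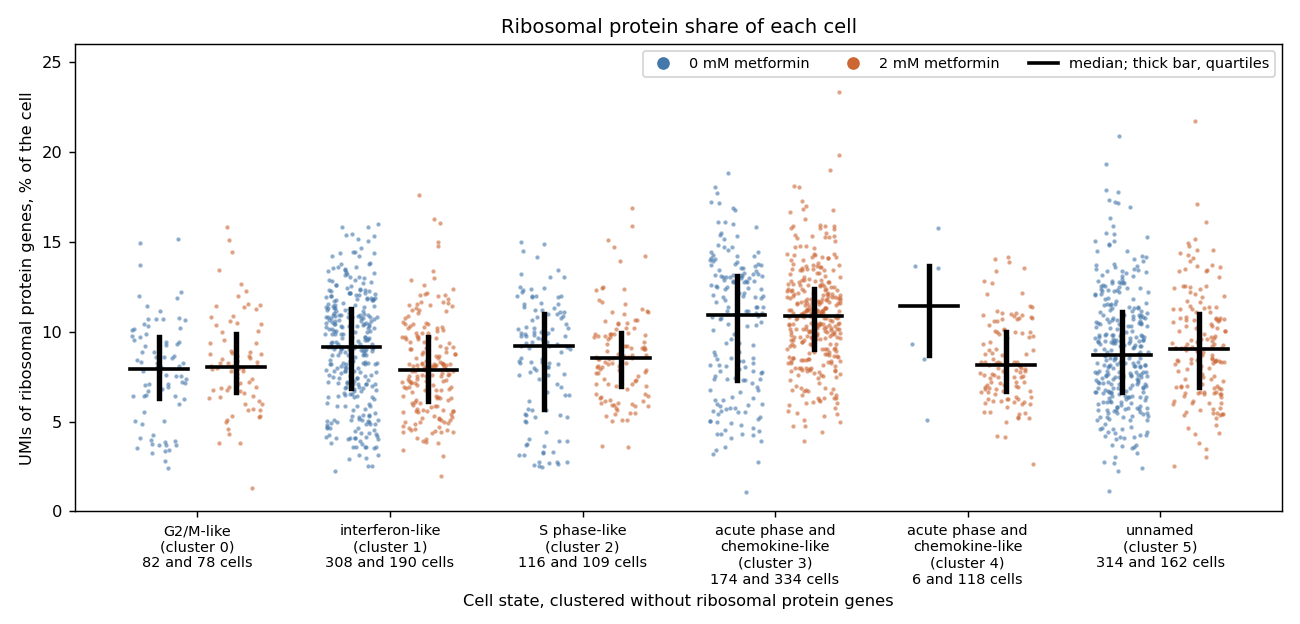
Share of each cell's UMIs that came from the members (vertical, percent) by cell state, in blue at 0 mM and orange at 2 mM; each point is a cell, horizontal bars are medians and thick bars quartiles. In cluster 3 the medians are 10.9% and 10.8%, against 7.93% and 8.05% in G2/M-like cells, with wide overlap between all states. At 2 mM the lowest median is that of interferon-like cells, 7.89%.

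Most members took part in the lower level of G2/M-like cells. In 61 of the 71 members compared in both libraries the ratio of these cells to the other cells of the same library lay below 1 at both doses, and in 2 it lay above 1. The median log2 ratios were -0.25 and -0.21, against 0.07 and 0.05 for all genes. Counted in each library alone, 43.6% and 46.2% of all genes lay below 1. RPL34 was at least 1.5-fold lower in both libraries, with 994 against 1563 CPM at 0 mM (0.636) and 981 against 1560 at 2 mM (0.629), where 6.24% of all genes were called lower. The exception was RPL39L, a copy of RPL39 with a high level in testis and some tumours, with 118 against 47.1 CPM at 0 mM (2.505, 1.86 to 3.34) and 101 against 46.0 CPM at 2 mM (2.19, 1.42 to 3.29). It was the only member called higher, where 7.32% of all genes were.

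RPL39L also was the only member called in both libraries in S phase-like cells, where 9.64% of all genes were called higher and 3.86% lower in both. At 2 mM alone, 2 members were called lower. It had 82.4 against 49.7 CPM at 0 mM (1.66, 1.24 to 2.20) and 103 against 37.9 at 2 mM (2.71, 1.96 to 3.74). The other members of that state were mostly a little lower than in the other cells, with 44 of 71 below and 14 above 1 in both libraries and medians of -0.08 and -0.12. Over all genes the medians were 0.07 and 0.06. Counted in each library alone, 43.3% and 44.2% of all genes lay below 1. RPL39L was thus higher in both cycling states, and it was lower in the interferon-like state (0.394 and 0.520). Its counts were small, with 247 UMIs at 0 mM and 166 at 2 mM in all.

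In interferon-like cells 4 members were at least 1.5-fold lower than in the other cells in both libraries, RPL39L, RPL5, RPL6 and RPS2, where 9.61% of all genes were called lower. RPL5 had 824 against 1317 CPM at 0 mM (0.626) and 750 against 1218 at 2 mM (0.616). RPL6 was at 0.634 and 0.534, and RPS2 at 0.568 and 0.640. No member was called higher, where 8.60% of all genes were. Members with longer coding sequences had lower ratios in this state, with rank correlations to coding length of -0.575 and -0.369. The 37 short members had a median of 0.05 and the 34 longer ones -0.15 at 0 mM, but -0.13 and -0.17 at 2 mM. A relation to coding length was not confined to this state. The rank correlations were 0.431 and 0.319 in G2/M-like cells and 0.462 and 0.195 in cluster 3. They were 0.225 and 0.088 in S phase-like cells and 0.279 and -0.300 in cluster 5.

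In the acute phase and chemokine-like cluster 3 the higher level was shared by 62 of 72 members at both doses, and 3 lay below 1 at both. The medians were 0.23 and 0.34, against -0.06 and -0.02 for all genes. Counted in each library alone, 44.3% and 47.0% of all genes lay above 1. No member passed 1.5-fold in both libraries, where 1.54% of all genes were called higher and 6.42% lower. The unnamed cluster 5 had medians of -0.02 and 0.01 and no member called, where 0.428% and 3.21% of all genes were called higher and lower.

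The dose differences of RPL3, RPL10 and RPS27, but not that of RPS3A, were seen in each state compared, where the differing numbers of cells per state do not enter. RPL3 was 2.72-fold higher at 2 mM in G2/M-like cells, 2.35 in interferon-like, 2.61 in S phase-like, 2.06 in cluster 3 and 2.06 in cluster 5. RPL10 was at 1.92, 2.95, 1.78, 1.84 and 1.89 in the same order, and RPS27 at 2.15, 1.67, 1.59, 2.08 and 2.17. RPS3A reached the minimum in 2 states only and was at 1.78 (1.07 to 2.98) in S phase-like cells and 0.888 (0.5997 to 1.32) in cluster 3. At the low end RPL30 was at 0.695, 0.611, 0.693, 0.719 and 0.599. Of 70 members compared in all 5 states, 20 had a ratio above 1 in every state and 19 a ratio below 1 in every state. How many of all genes did so was not counted, so whether these numbers are particular to the members is not known. All states come from the same pair of libraries, so this is no replication of the dose difference.

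Within the G2/M-like state 6 of 71 members were called higher at 2 mM and 2 lower, where 9.43% and 11.1% of all genes were. In the interferon-like state 6 and 4 of 70 members were called (9.24% and 6.83% of all genes), in the S phase-like state 4 and 1 of 72 (9.06% and 6.08%), in cluster 3 6 and 1 of 72 (10.9% and 5.41%) and in cluster 5 4 and 3 of 70 (10.0% and 14.3%). Whether these shares differ from those of all genes was not tested. The medians of the members stayed between -0.01 and 0.06.

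RPLP1 was the clearest member whose dose ratio differed between states. Over all cells its level was the same in both libraries. In cluster 3 it had 3680 CPM at 0 mM and 5601 at 2 mM, a ratio of 1.52 (1.46 to 1.59), and in the interferon-like state 5484 and 3908 CPM, a ratio of 0.713 (0.682 to 0.745). The G2/M-like and S phase-like states had 1.09 and 1.08, the latter 0.983 without the deepest 5% of barcodes, and cluster 5 had 0.925. RPLP1 was thus above the other cells in interferon-like cells at 0 mM (1.33) and below them at 2 mM (0.830), and the reverse held in cluster 3 (0.776 and 1.40).

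The cells compared within a state were not made up alike in both libraries. With finer clusters (resolution 1.0), 134 cells of cluster 3 at 2 mM but 2 at 0 mM fell into a cluster led by SOX4, CCL2 and DEFB1, where RPLP1 had 5901 CPM at 2 mM. In the 92 and 64 cells of cluster 3 that shared 1 finer cluster, led by FBXO32 and SHISA2, RPLP1 had 4079 and 5245 CPM, a ratio of 1.29 (1.199 to 1.38) in place of 1.52. Of the interferon-like cells, 249 at 0 mM and 76 at 2 mM shared 1 finer cluster, with 5764 and 4249 CPM and a ratio of 0.737 (0.695 to 0.781). RPLP1 thus stayed on opposite sides of 1 in these finer clusters, a comparison added after the data were seen.

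**Figure D4:**
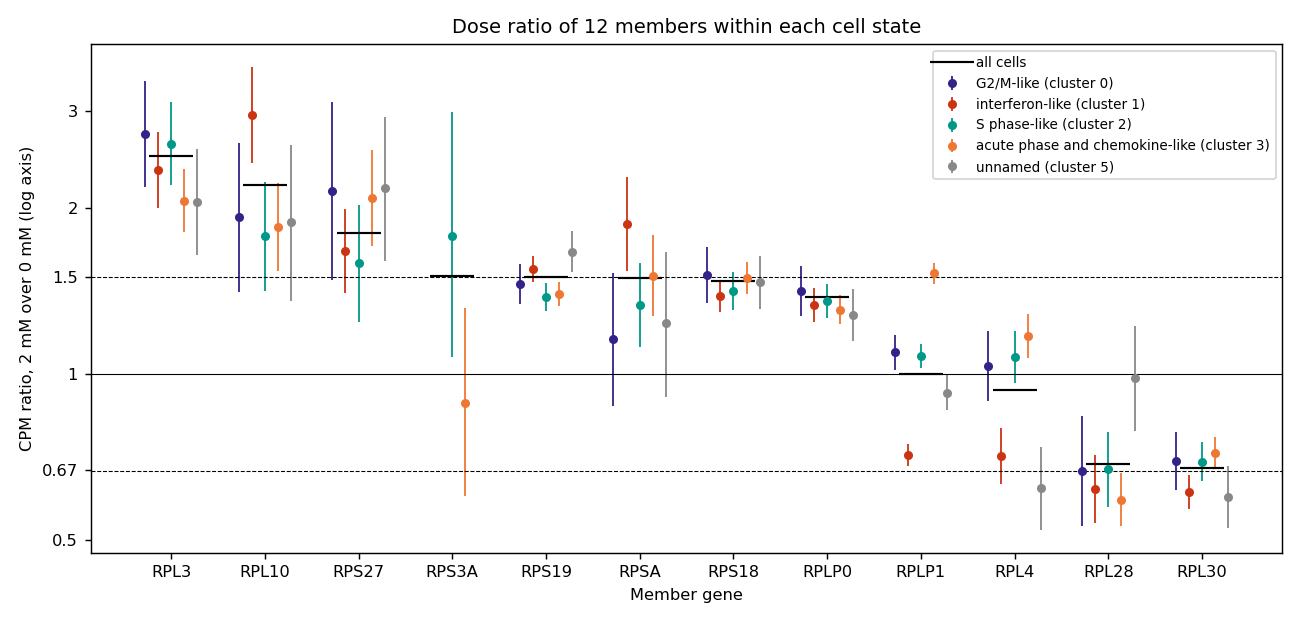
Ratio of the CPM at 2 mM to that at 0 mM (vertical, log axis) for 12 members within 5 cell states (colours), with 95% counting intervals and the value over all cells as a black bar; points under the minimum are left out. RPL3, RPL10 and RPS27 lie above 1.5 in each state, while RPLP1 runs from 0.713 in interferon-like cells to 1.52 in cluster 3.

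Which members carried the spread between cells was described by comparing the 25% of cells with the highest share (high-share cells) with the 25% with the lowest (low-share cells), within each library. This comparison was added after the data were seen. For each member both groups of cells were set by the share of all other members, and levels were scaled to the UMIs that are not from members. Of 72 members with at least 50 UMIs at 0 mM, 67 were at least 1.5-fold higher in high-share cells, and of 74 at 2 mM 65 were, where 10.1% and 9.30% of all other genes were. The median ratios were 3.22 and 2.42. Because the groups were set by the summed share of the other members, the members as a set had to be higher in high-share cells. These counts and medians thus follow largely from the grouping, and setting them beside other genes shows nothing further about the members.

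The size of a member's ratio followed the length of its coding sequence closely. The rank correlation with coding length was -0.667 over the 72 members at 0 mM and -0.763 over the 74 at 2 mM. The members up to 453 bases had median ratios of 3.73 and 3.09, and the longer ones 2.38 and 1.83. RPS27, with 252 coding bases, had the highest ratio, 6.67 at 0 mM (4.82 to 9.47) and 8.99 at 2 mM (6.58 to 12.6), and RPL39, with 153 bases, had 4.998 and 3.33. The longest of these members hardly took part: RPL4, with 1281 bases, was at 0.956 and 1.46, RPL3, with 1209 bases, at 1.42 and 1.27, and RPLP0, with 951 bases, at 1.33 and 1.30.

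The paralogs RPL39L and RPS27L lay below the members of their coding length. RPL39L has the same coding length as RPL39, 153 bases, and was at 1.08 (0.708 to 1.66) and 0.640 (0.387 to 1.05), so its intervals lay below those of RPL39 in both libraries. RPS27L, with the 252 bases of RPS27, was at 2.01 (1.71 to 2.37) and 1.53 (1.27 to 1.85), also below RPS27. RPL10L went the other way, with the 642 bases of RPL10. It was at 4.37 (0.953 to 40.5) and 2.08 (0.835 to 5.84), against 3.79 and 1.58 for RPL10. These RPL10L ratios rest on 11 and 2 UMIs in high-share and low-share cells at 0 mM and 19 and 7 at 2 mM. Their intervals included the ratios of RPL10. RPL3L had too few UMIs to be compared. Equal coding length is not equal mRNA length: the annotated transcripts have 653 bases for RPL39L against 401 for RPL39, and 6434 for RPS27L against 359 for RPS27. Some annotated transcripts of members, that of RPS27L among them, are long for their mRNAs, so these lengths are uncertain.

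**Figure D5:**
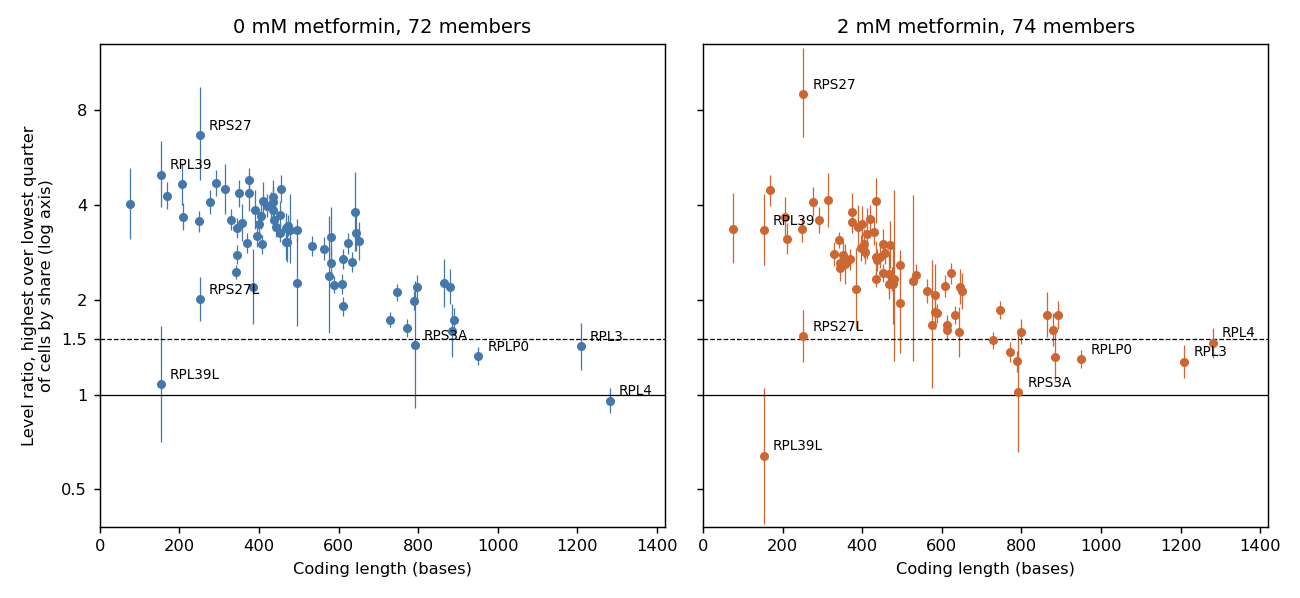
Ratio of a member's level in high-share to that in low-share cells, each 25% of a library (vertical, log axis) against its coding length in bases, at 0 mM (left) and 2 mM (right), with 95% counting intervals. Ratios decline from 6.67 and 8.99 for RPS27 to between 0.956 and 1.46 for RPLP0, RPL3 and RPL4, the longest members plotted, and RPL39L and RPS27L lie below RPL39 and RPS27, which have their coding lengths.

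Short mRNAs that encode no ribosomal protein of the rule varied in the same direction. Of 173 other genes with transcripts up to 700 bases, 68.8% were at least 1.5-fold higher in high-share cells at 0 mM, and of 177 at 2 mM 46.9% were. For transcripts over 3000 bases the shares were 4.67% of 1733 genes and 6.77% of 1831. The UMIs of 387 other genes with transcripts up to 700 bases made up 5.28% of low-share and 9.22% of high-share cells at 0 mM, and 6.49% and 8.57% at 2 mM. The share of a cell that members take thus moved together with the share of other short transcripts. Whether the members' variation differs from that of other short transcripts was not tested. In contrast, short transcripts did not follow the order of the states: they held 7.47% and 7.71% in cluster 3 and 7.84% and 7.99% in G2/M-like cells.

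Several genes that share features with the members also were higher in high-share cells, chosen after their values were seen. SNHG5, SNHG8, GAS5 and ZFAS1 are noncoding transcripts that host small nucleolar RNAs. They had ratios of 4.02, 4.15, 2.92 and 3.34 at 0 mM and 2.64, 3.96, 2.36 and 2.32 at 2 mM. SNHG6, another host gene, was at 3.11 and 2.90. A sixth host gene looked at, SNHG1, was not higher at 0 mM, at 0.749 (0.549 to 1.02), and was at 1.35 (0.879 to 2.11) at 2 mM. FAU was at 2.79 and 1.89, within the range of the members. EEF1A1, which encodes the elongation factor that brings tRNA to the ribosome, was at 2.65 and 2.90, and PABPC1, the poly(A)-binding protein, at 1.36 and 1.44. NPM1 was at 1.19 in both libraries. VIM was lower in high-share cells, at 0.564 and 0.760, as was GAPDH, at 0.686 and 0.806.

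The mitotic cyclin CCNB1 was at 0.133 and 0.274 and TOP2A at 0.222 and 0.326. The G2/M marker list summed to 5824 CPM in low-share and 1632 in high-share cells at 0 mM, and to 4552 and 1540 at 2 mM. The interferon list went from 5894 to 4392 CPM and from 7151 to 2804, and the acute phase and chemokine list from 1263 to 3727 and from 5656 to 6957 CPM. Cells of cluster 3 made up 15.2% of low-share and 31.2% of high-share cells at 0 mM and 12.9% and 58.5% at 2 mM. The groups thus differed in state as well as in the share of short transcripts, and their parts were not tested. Median depth was 2407 and 3972.5 UMIs at 0 mM and 2100 and 2959 at 2 mM in low-share and high-share cells.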

How the data were processed

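Single-cell libraries of MDA-MB-231 mammospheres, 1 per dose, were analysed from the deposited table of whole UMI counts per gene and barcode. Per the submitters' processing notes, bcl2fastq, STAR 2.5.0a and hg19 were used. How barcodes were chosen, UMIs collapsed and strand or multiply matching reads treated is not given in the sources used here. The 2000 deposited barcodes were reduced to those with at least 500 UMIs and 300 genes. Doublets were not called. The deepest 5% of barcodes were dropped as an alternative. The members and gene lists were chosen with earlier results of these data known.

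Summed counts were divided by the library total. Ratios carry exact conditional 95% Clopper-Pearson intervals for counting error, which 1 library per dose cannot extend to biological error. A change was called by size, 1.5-fold, for genes with 50 CPM in either library and 50 UMIs over both. The interval code was tested on simulated data. Clusters came from scanpy 1.11.5 (2000 variable genes, 20 components, 15 neighbours, Leiden resolution 0.5). A state was compared between doses with at least 50 cells in each library. TMM factors came from edgeR 4.0.16. Coding and transcript lengths and pseudogene names are from GENCODE v29, using the transcript of the best APPRIS class. Start-site windows are from RefSeq (GRCh38.p14), and no coordinate of hg19 was used.

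Members named were those past 1.5-fold, the 6 highest and 6 lowest others by the interval bound nearest 1, the 5 highest levels, members under the minimum and a set list by role. Of the other lists, up to 3 at each end were named. Alternatives changed the barcode filter, the scaling, the minimum, the weighting of cells, the depth and the clusters. Some members and related genes are counted in the totals but not reported here by name.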

Additional observations from a re-analysis of the deposited data

Results flagged for a closer look

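The dose ratios of RPLP1 and RPL4 lay on opposite sides of 1 in different states, with intervals for counting error that did not include 1. The difference between states was not tested, since there was 1 library per dose. RPLP1 was at 1.52 (1.46 to 1.59) in the acute phase and chemokine-like cluster 3 and at 0.713 (0.682 to 0.745) in interferon-like cells. Without the deepest 5% of barcodes these values were 1.48 and 0.660, with cells weighted equally 1.58 and 0.691, and with TMM factors 1.43 and 0.671. In the finer cluster that held most of each state's cells at 0 mM they were 1.29 and 0.737.

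RPL4 was at 1.17 (1.07 to 1.28) in cluster 3 and at 0.622 (0.522 to 0.738) in the unnamed cluster 5, where cells were shallow. It was also low in interferon-like cells, at 0.711. RPL4 stayed on the same sides of 1 in cluster 3 and cluster 5 under the same 3 settings, from 1.10 to 1.15 and from 0.586 to 0.738. Within 1 finer cluster of each, its intervals included 1, at 1.05 (0.899 to 1.23) in cells of cluster 3 and 0.703 (0.480 to 1.01) in cells of cluster 5. In the finer cluster shared by 249 and 76 interferon-like cells, RPL4 was at 0.585 (0.494 to 0.691), an interval wholly below 1.

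The pseudogene row RPSAP58, a processed copy of RPSA outside the members, had 319 UMIs at 0 mM and 381 at 2 mM, a ratio of 1.61 (1.38 to 1.88). RPSA itself was at 1.49. Added to RPSA, this row brought the number of members called higher from 4 to 5.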

How the results depend on the processing

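No paired analysis was possible because each dose had 1 library, and no replicate could be left out. Depth limits the low members: 8 lay under the minimum. Counts of members past 1.5-fold changed as follows. Members called lower numbered 2 without the deepest 5% of barcodes, 1 with cells weighted equally and 2 with TMM factors, against 0, where 128, 167 and 223 of all genes were, against 136. With no CPM minimum 9 members were called higher, against 4, where 1042 of all genes were, against 207. Members called higher numbered 3 with TMM factors, 4 with all deposited barcodes or near-identical barcodes merged, and 5 or 6 in the other settings, where RPS19, RPSA or RPS2 passed. Of all genes, 140 were called higher with TMM factors, 210 with all deposited barcodes and 207 with near-identical barcodes merged. They numbered 205 with at least 1000 UMIs a cell and 214 with at most 10% mitochondrial UMIs. Without the deepest 5% of barcodes they numbered 239, and with cells weighted equally 268. Shares over whole libraries moved by more than counting error. They were 9.80% at 2 mM with at least 1000 UMIs a cell, 9.51% at 0 mM and 9.77% at 2 mM with at most 10% mitochondrial UMIs, 9.10% and 9.32% with cells weighted equally, and 9.23% and 9.57% in thinned cells, a difference of 0.340 points. Without the deepest 5% of barcodes the 2 mM share was 9.42% and the difference reversed to -0.081 points; the cause was not tested.

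Differences in share between a state and the other cells, in points, moved as follows, with each pair at 0 and 2 mM. In the G2/M-like state they were -1.27 and -1.15 at resolution 0.3, -2.14 and -1.17 without the deepest 5% of barcodes, -1.55 at 2 mM at resolution 1.0, and at 0 mM -1.56 in thinned cells and -1.49 by marker lists. In the S phase-like state they were 0.022 (reversed) and -0.390 at resolution 1.0, -0.674 and -0.994 thinned, -0.526 and -1.34 without the deepest 5%, and -1.09 and -0.908 by marker lists. In the interferon-like state they were -0.428 and -1.02 at resolution 1.0, -0.342 and -1.67 without the deepest 5%, -0.403 at 0 mM by marker lists, and at 2 mM -0.857 at resolution 0.3 and -1.62 thinned. In the acute phase and chemokine-like state they were 1.27 and 1.47 at resolution 0.3, 2.68 and 1.99 at resolution 1.0, 1.75 and 2.58 without the deepest 5%, 1.36 at 0 mM thinned and 0.370 at 2 mM by marker lists. The cause of these moves was not tested. The values without the deepest 5% by state, and those of RPLP1 and RPL4 within states and finer clusters, were alternatives chosen after seeing the data. Of the members named, RPLP1, with a log2 ratio of -0.0018 over all cells, changed sign, to 0.0073 with at least 1000 UMIs a cell and 0.0023 with members left out of the total.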
